A study of Arabidopsis thaliana with 36 samples.

Results

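The comparison described here is the effect of leaf age 1 h after the lights went off, at Zeitgeber time (ZT, hours after lights-on) 17. It sets leaves of plants 35 days after sowing (DAS) against leaves of plants at 21 DAS. The 6 libraries labelled ZT17, 3 of each age, were chosen by their labels out of 36 in the series, which also sampled both ages at ZT1, ZT5, ZT9, ZT13 and ZT21 in 3 libraries each. All libraries are poly(A) RNA of rosette leaves (leaf positions 3 and 4) of Arabidopsis thaliana, wild-type accession Col-0, grown at 22 °C in 16 h of white light (100 µmol m-2 s-1) and 8 h of dark. No mutant, transgene or treatment was used, so age and time of day are the only labelled differences. The series text calls the 3 libraries of a group biological replicates and their titles number them as batches. The number of plants in a library is not given in the sources used here, so p-values measure the spread between these libraries. The series asks how the daily rhythm of the leaf transcriptome changes with age.

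The deposited values are FPKM (sequenced fragments normalised for the length of the transcript and the size of the library), which keep no read totals. From the smallest values of 1363 low loci, the depth of the ZT17 libraries relative to 21 DAS replicate 2 was estimated at 1.025, 1 and 0.735 at 21 DAS and 0.93, 0.826 and 0.847 at 35 DAS for replicates 1 to 3. Between 16555 and 16938 loci reached 1 FPKM in a ZT17 library. One locus, AT2G01021, stood apart: it was listed at 74543 FPKM in 21 DAS replicate 1 and at 36327 FPKM in 35 DAS replicate 3, and at 0 in the other 4 ZT17 libraries. At the other times it was above 0 only in 35 DAS replicate 2 of ZT13 (28196.5 FPKM) and 35 DAS replicate 3 of ZT21 (27855.6 FPKM). As a check of the labelled organ, the Rubisco small subunit gene RBCS1A (AT1G67090) lay at 20130.0 to 23142 FPKM at 21 DAS and 3916 to 5731 FPKM at 35 DAS. The summed level of all 6 flower markers was at most 2.42 FPKM in any ZT17 library. The 6 root markers summed to 10.8 to 12.5 FPKM at 21 DAS and 17.1 to 21.7 FPKM at 35 DAS, most of it from SCR, with IRT1, WOX5 and PLT1 at 0.

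In Arabidopsis the circadian clock is a loop of transcription factors that repress one another in turn. The morning factors CCA1 and LHY peak around dawn, the pseudo-response regulators follow through the day, and the evening complex acts after dusk. Loss of light at dusk inactivates phytochrome over time, stabilises phytochrome-interacting factors, and switches carbon supply from photosynthesis to the breakdown of leaf starch. Leaf senescence adds NAC transcription factors, chlorophyll breakdown and nutrient export, and is promoted by darkness, ethylene, abscisic acid and sugar starvation.

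At ZT17, 5059 of 18729 loci tested (27%) were higher at 35 DAS and 3454 (18.4%) were lower. Counts of list members below should be read against these shares of all loci. A locus was called when limma's moderated test on log2(FPKM + 1), fitted to all 36 libraries and adjusted by Benjamini-Hochberg, gave an adjusted p under 0.05 both with the values as deposited and after median-of-ratios rescaling, with the same sign. "Rose" and "fell" below mean called higher and called lower at 35 DAS, and fold changes are differences on the log2(FPKM + 1) scale, which understates the change of low genes. Both scalings were required because the median of all loci was shifted by 0.33 as deposited and by 0.03 after rescaling. The share of higher loci among all called ones was 71.3% as deposited alone, 49.2% after rescaling alone and 59.4% under both. Fold changes are given as deposited, so values should be read against the shift of 0.33. In bulk leaf RNA, fewer cells of a type and less RNA per cell cannot be told apart. Without the 2 ZT17 libraries that hold AT2G01021, 4287 loci were higher and 3161 lower. The ZT13 and ZT21 libraries that hold it stayed in the fit. Of the age effects and differences given below, that choice, made after seeing the data, ended the call for the age effects of STP1 (-0.80), CAO (0.68), AOC1, BAS1 and PYK10 (1.44). It also ended the call for the differences from the other times of LHY (1.46), ANK (1.86), AT3G28540 (1.80), AT2G14247 (-2.79), BHLH100 (-2.51), STP1 (-1.07) and ACD6 (1.76). Of the called loci, 2662 rose and 1534 fell by a factor of 2 or more.

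**Figure D1:**
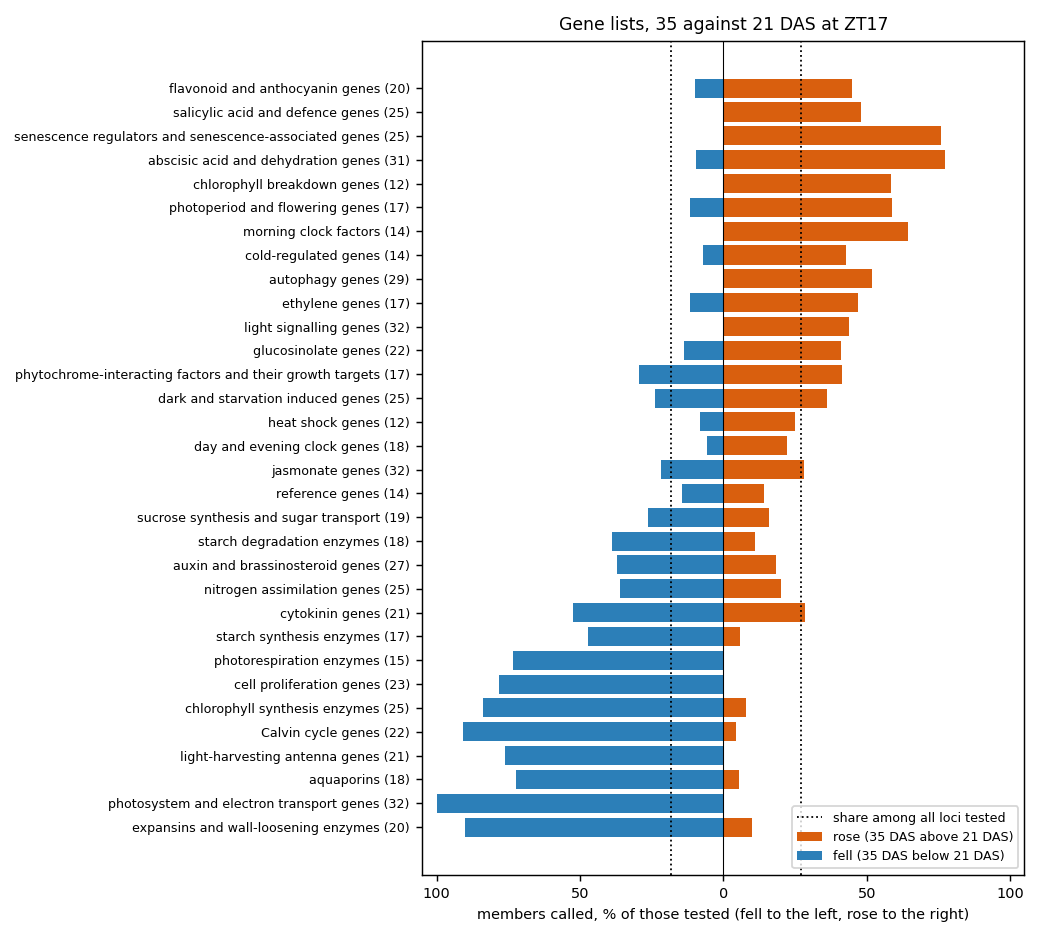
For each of 32 gene lists (number of loci tested in brackets), the bars give the percentage of its tested loci that rose (right) and fell (left) at 35 DAS relative to 21 DAS at ZT17. The dotted lines mark the 27% and 18.4% of all tested loci. The photosystem list has 100% of its loci on the falling side and the senescence list 76% on the rising side.

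Among the morning clock factors, 9 of 14 rose and none fell (1 did without 35 DAS replicate 1). As a median the list was 1.11 higher (0.86 after rescaling), against 0.33 (0.03) for all loci. CCA1 (AT2G46830, chr2:19245672-19248914 on TAIR10), a MYB-like repressor of the evening genes, stood at 0.865, 0.990 and 1.00 FPKM in the 3 libraries of 21 DAS. It stood at 11.0, 12.7 and 11.4 FPKM at 35 DAS, so the ages did not overlap and the spread within each was small. The log2 difference was 2.70 (SE 0.35, adjusted p = 2.32e-07). LHY (AT1G01060, chr1:33379-37871), its close partner, stood at 4.22, 4.57 and 3.64 FPKM at 21 DAS and 22.2, 21.6 and 25.4 FPKM at 35 DAS, a difference of 2.23 (SE 0.43, adjusted p = 5.96e-05). LNK1 (AT5G64170) and LNK2 (AT3G54500), coactivators that the morning MYB factors recruit, moved the same way. LNK1 stood at 0.383, 0.357 and 0.193 FPKM against 8.98, 14.9 and 5.67 FPKM, a difference of 2.96 (SE 0.32, adjusted p = 1.44e-08). LNK2, which overlaps the annotated locus AT3G54490, stood at 3.13, 2.80 and 3.21 FPKM against 18.8, 18.5 and 13.9 FPKM, a difference of 2.15 (SE 0.30, adjusted p = 6.21e-07). At both ages these genes were far below their own morning level: CCA1 averaged 286 FPKM at ZT1 at 21 DAS and 419 FPKM at 35 DAS.

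The 250 bases before the annotated start (RefSeq, TAIR10.1) are shown for 3 of the genes that rose, because the G-box CACGTG occurs in each. The G-box is the core site of light-responsive bZIP and bHLH factors. The searched letters, here in capitals, are their own reverse complement, so both strands were read at once. In CCA1 (chr2:19245341-19245590, plus strand) the match begins 193 bases before the start, in LHY (chr1:37872-38121, minus strand) 80 bases and in CDF2 (chr5:15878448-15878697, plus strand) 77 bases.
CCA1: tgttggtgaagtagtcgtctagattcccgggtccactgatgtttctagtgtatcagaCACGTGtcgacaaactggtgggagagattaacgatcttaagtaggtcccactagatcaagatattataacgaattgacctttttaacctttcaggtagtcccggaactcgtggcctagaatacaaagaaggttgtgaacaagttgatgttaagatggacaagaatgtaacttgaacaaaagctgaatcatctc
LHY: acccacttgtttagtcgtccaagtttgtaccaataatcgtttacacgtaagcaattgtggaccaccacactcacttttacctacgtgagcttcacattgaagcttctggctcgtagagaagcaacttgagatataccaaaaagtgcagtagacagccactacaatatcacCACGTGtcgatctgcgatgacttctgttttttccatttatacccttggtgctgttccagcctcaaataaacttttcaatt
CDF2: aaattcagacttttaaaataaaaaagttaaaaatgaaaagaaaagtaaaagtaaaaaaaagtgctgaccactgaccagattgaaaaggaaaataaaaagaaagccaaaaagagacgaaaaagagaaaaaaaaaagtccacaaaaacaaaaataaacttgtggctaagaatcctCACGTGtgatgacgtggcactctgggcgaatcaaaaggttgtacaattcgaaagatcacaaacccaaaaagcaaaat
The G-box was found in 7 of 14 morning clock promoters (50%) and in 7.39% of the 18443 promoters of tested loci. Its share was 8.29% among the loci that rose at ZT17 and 7.04% among those that fell, both close to the share of all promoters. It was found in 19.4% of the abscisic acid list, 9.38% of the light signalling list, 8% of the dark- and starvation-induced list and 0% of the expansin and wall-loosening list. These matches describe letters in a window and do not identify a bound site.

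Whether ZT17 differed from the rest of the day was tested directly, as the age effect at ZT17 minus the mean age effect at the other 5 times. This difference was higher for 958 loci (5.12%) and lower for 1293 (6.9%). Counts of list members for this difference should be read against these shares. By scaling, the share of higher loci among those called was 35.1% as deposited and 52.3% after rescaling. Of the 958, 502 also rose at ZT17, 104 fell and 352 were not called there. Of the 1293, 573 fell at ZT17, 52 rose and 668 were not called. Within each age, the loci with the higher difference lay at ZT17 a median of -0.65 from their mean over the other times at 21 DAS and 0.01 at 35 DAS. Those with the lower difference lay 0.86 above it at 21 DAS and 0.11 above it at 35 DAS. These medians come from the values that chose the loci and are a description only. For all loci they were 0.12 and 0.08. Without 21 DAS replicate 2 the lower count was 852 instead of 1293.

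Of the 14 morning factors, 5 had a higher age effect at ZT17 than over the other times, against 5.12% of all loci. Against ZT13 none had a called difference, and against ZT21 2 were higher. For CCA1 the difference from the other times was 1.51 (SE 0.38, adjusted p = 0.00831) and for LNK2 it was 1.38 (SE 0.32, adjusted p = 0.00464). CCA1 averaged 286, 54.8, 3.05, 0.440, 0.952 and 45.4 FPKM at ZT1, 5, 9, 13, 17 and 21 at 21 DAS, and 419, 57.1, 10.7, 9.84, 11.7 and 123 FPKM at 35 DAS. The ages were therefore close at ZT5, and far apart in relative terms at ZT13 and ZT17. LNK2 averaged 290.2, 121, 24.3, 4.05, 3.05 and 11.98 FPKM at 21 DAS and 305, 98.5, 24.4, 20.13, 17.1 and 65.7 FPKM at 35 DAS, with nearly equal levels at ZT1 and ZT9 and a higher floor at 35 DAS from ZT13 to ZT21. For LNK1 the difference was 1.396 (SE 0.35, adjusted p = 0.00815) with all libraries and 1.07 (adjusted p = 0.0587) without 35 DAS replicate 2, which ends the call. For LHY it was 1.52 (SE 0.47, adjusted p = 0.028). Leaving out any single ZT17 library ended that call, with values from 1.44 to 1.58 (adjusted p from 0.0539 to 0.0768). Since these genes are at a low level at 21 DAS, the pseudocount matters: with 5 instead of 1 the calls for CCA1 (0.67) and LNK1 (0.25) were lost, and with 0.1 the call for LHY (1.43, adjusted p = 0.0916) was lost.

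**Figure D2:**
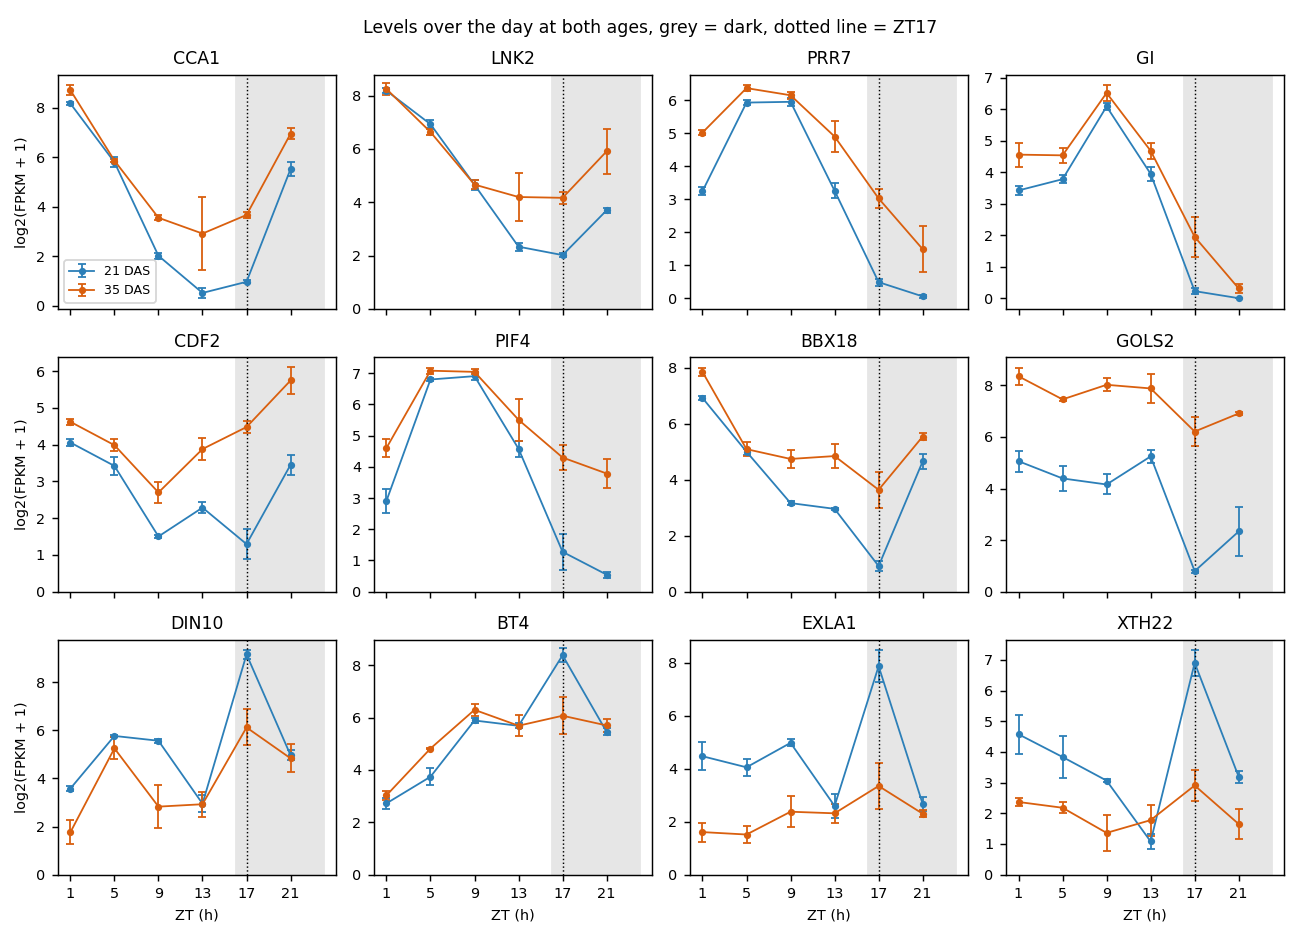
Mean log2(FPKM + 1) against ZT in hours for 12 genes at 21 DAS (blue) and 35 DAS (orange), with bars of 1 SD over 3 libraries. Grey marks the dark period and the dotted line ZT17. CCA1, LNK2, PRR7, GI, CDF2, PIF4, BBX18 and GOLS2 lie lower at 21 DAS than at 35 DAS at ZT17, and DIN10, BT4, EXLA1 and XTH22 have their highest 21 DAS point there, well above 35 DAS.

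Among day and evening clock genes, 4 of 18 rose (22.2%, near the 27% of all loci) and 1 fell. Rescaling alone called 6 lower, and leaving out 35 DAS replicate 1 gave 3 that fell. PRR7 (AT5G02810), a daytime repressor of CCA1, stood at 0.301, 0.429 and 0.496 FPKM at 21 DAS and 6.76, 9.07 and 5.92 FPKM at 35 DAS, a difference of 2.53 (SE 0.22, adjusted p = 2.37e-10). GI (AT1G22770), which links the clock to flowering, stood at 0.182, 0.231 and 0.0959 FPKM and 2.17, 5.34 and 1.85 FPKM, a difference of 1.72 (SE 0.21, adjusted p = 9.42e-08). Both are day genes, and both were below 1 FPKM in every 21 DAS library at ZT17 and above it in every 35 DAS library. Against the other times the difference was 1.44 (SE 0.24, adjusted p = 0.000135) for PRR7 and 1.05 (SE 0.23, adjusted p = 0.0026) for GI, and with a pseudocount of 5 these calls were lost (0.41 and 0.10). PRR3 (AT5G60100), an evening regulator, rose from 6.96, 7.81 and 7.22 FPKM to 19.9, 22.5 and 17.5 FPKM, by 1.33 (SE 0.20, adjusted p = 2.51e-06). TCP21 (AT5G08330), also named CHE, a repressor of CCA1, was the 1 member that fell, from 36.7, 72.6 and 60.8 FPKM to 17.3, 5.32 and 9.47 FPKM, a difference of -2.38 (SE 0.26, adjusted p = 1.53e-08).

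Of 17 photoperiod and flowering genes, 10 rose and 2 fell; leaving out any of 4 of the 6 libraries (21 DAS replicates 2 and 3, 35 DAS replicates 1 and 2) left 1 that fell. CDF2 (AT5G39660, chr5:15878699-15881044), a DOF repressor of CO and FT that is made in the morning, stood at 1.32, 2.31 and 0.918 FPKM at 21 DAS and 20.9, 24.2 and 19.2 FPKM at 35 DAS, a difference of 3.19 (SE 0.19, adjusted p = 4.08e-13). Every 35 DAS library was far above every 21 DAS library. Its age effect exceeded that of the other times by 1.94 (SE 0.21, adjusted p = 3.59e-07). CDF2 averaged 15.7, 9.83, 1.83, 3.90, 1.52 and 10.09 FPKM over the 6 times at 21 DAS and 23.7, 14.9, 5.58, 14.0, 21.4 and 53.9 FPKM at 35 DAS, so at 35 DAS it was already above its ZT13 level at ZT17. Its relatives CDF1 (AT5G62430) and CDF3 (AT3G47500) rose by 1.26 (adjusted p = 0.000169) and 1.68 (adjusted p = 5.91e-06). TEM2 (AT1G68840), a repressor of FT, rose from 41.0, 50.9 and 44.7 FPKM to 246, 127 and 169 FPKM, by 1.92 (SE 0.34, adjusted p = 2.3e-05). For TEM2 the age effect at ZT17 was -0.30 (SE 0.37, adjusted p = 0.653) relative to the other times, which did not pass the test.

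Light signalling genes rose in 14 of 32 cases and none fell, against 27% and 18.4% of all loci. Relative to the other times, 11 of the 32 had a higher age effect at ZT17 and 1 a lower one, against 5.12% and 6.9%. Against ZT13, 6 were higher and 2 lower, and against ZT21 8 were higher. After leaving out 21 DAS replicate 2 or 35 DAS replicate 1, 1 member fell. BBX18 (AT2G21320), a B-box factor that opposes light signalling, stood at 0.938, 1.09 and 0.655 FPKM at 21 DAS and 7.84, 19.5 and 9.69 FPKM at 35 DAS, a difference of 2.72 (SE 0.22, adjusted p = 6.62e-11). STO (AT1G06040), also called BBX24, stood at 15.9, 15.8 and 13.6 FPKM and 73.6, 92.8 and 58.0 FPKM, a difference of 2.21 (SE 0.21, adjusted p = 1.57e-09). STH (AT2G31380), its homologue, which overlaps the locus AT2G31390, stood at 3.71, 3.49 and 2.47 FPKM and 10.2, 12.1 and 9.67 FPKM, a difference of 1.47 (SE 0.26, adjusted p = 2.27e-05). For all 3 the ages did not overlap. Their age effects at ZT17 exceeded those of the other times by 1.65 (SE 0.24, adjusted p = 2.37e-05), 1.31 (SE 0.23, adjusted p = 0.000308) and 1.39 (SE 0.29, adjusted p = 0.00142). These B-box genes peak early in the day: BBX18 averaged 120.4 FPKM at ZT1 and 0.895 FPKM at ZT17 at 21 DAS, and 231 and 12.3 FPKM at 35 DAS. ELIP1 (AT3G22840), an early light-induced protein that protects chloroplasts, stood at 1.04, 1.52 and 1.32 FPKM at 21 DAS and 6.70, 79.5 and 10.9 FPKM at 35 DAS. It rose by 3.09 (SE 0.61, adjusted p = 9.56e-05), and 35 DAS replicate 2 lay far above the other libraries.

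Among phytochrome-interacting factors and their growth targets, 7 of 17 rose (41.2%) and 5 fell (29.4%), against 27% and 18.4% of all loci. Relative to the other times 6 had a higher age effect and none a lower one, against 5.12% and 6.9%. PIF4 (AT2G43010), which drives elongation growth when phytochrome is inactive, stood at 0.6998, 2.78 and 1.21 FPKM at 21 DAS and 24.3, 19.4 and 13.7 FPKM at 35 DAS, a difference of 3.02 (SE 0.27, adjusted p = 5.83e-10). Relative to the other times the difference was 1.76 (SE 0.30, adjusted p = 0.000182). HFR1 (AT1G02340), a bHLH protein that restrains these factors, rose from 0.469, 0.334 and 1.53 FPKM to 7.04, 4.91 and 6.15 FPKM, by 2.03 (SE 0.38, adjusted p = 3.87e-05). XTH7 (AT4G37800), a wall enzyme of the growth targets, went the other way. It stood at 238, 218 and 216 FPKM at 21 DAS and 31.3, 24.1 and 22.7 FPKM at 35 DAS, a difference of -3.07 (SE 0.28, adjusted p = 5.76e-10). PIF8 (AT4G00050) was not called at ZT17 itself (0.66), but its age effect there exceeded that of the other times by 0.93 (SE 0.21, adjusted p = 0.00299).

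**Figure D3:**
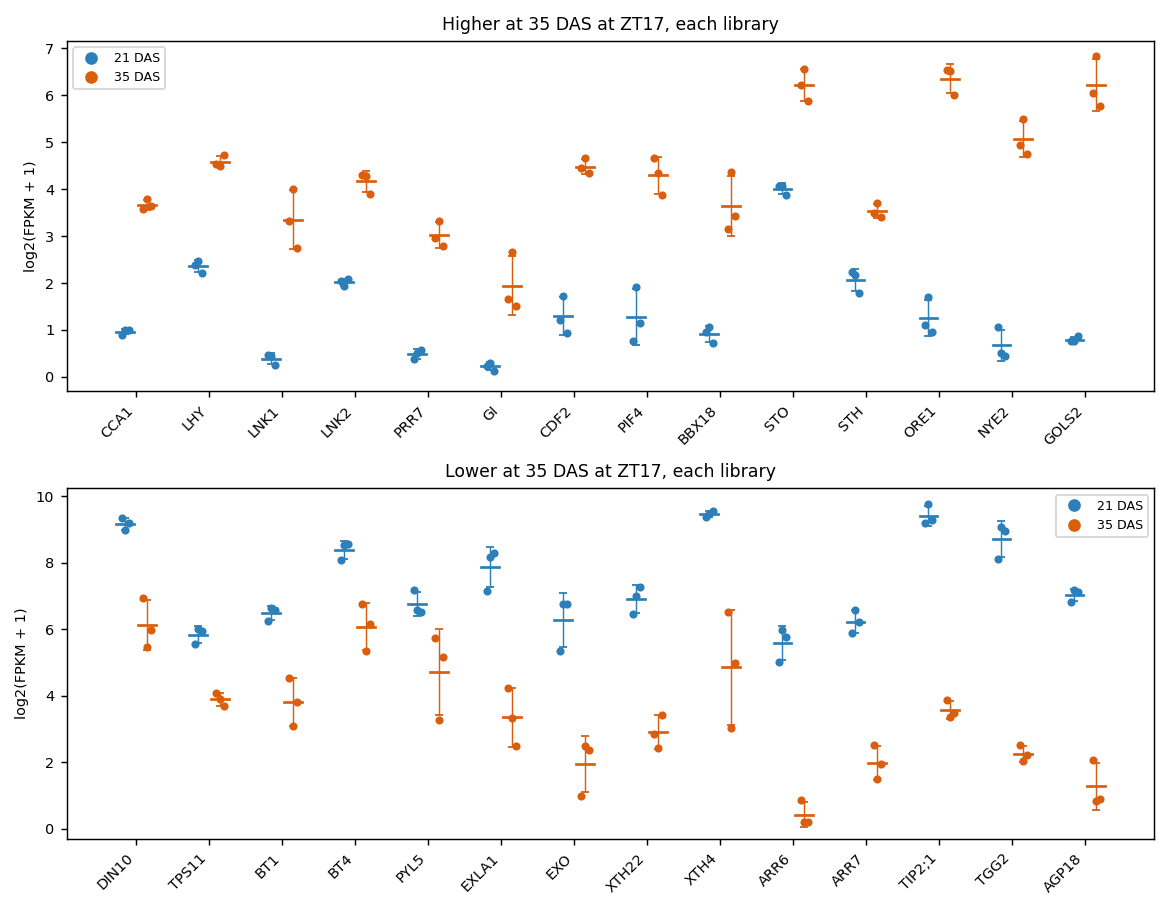
log2(FPKM + 1) of 14 genes that rose (upper) and 14 that fell (lower) at ZT17, with a point for each of 3 libraries at 21 DAS (blue) and 35 DAS (orange). Horizontal bars are means and error bars 1 SD. Points of the 2 ages do not overlap for any of the genes shown. XTH4 has the widest spread at 35 DAS, from 7.22 to 90.2 FPKM.

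A second group of genes was high at ZT17 in 21 DAS leaves and much lower at 35 DAS. It included some dark- and starvation-induced genes, some regulators with a BTB domain and some wall enzymes. Of 25 dark- and starvation-induced genes tested, 9 rose (36%) and 6 fell (24%), against 27% and 18.4% of all loci. Relative to the other times, 6 had a lower age effect at ZT17 and 1 a higher one, against 6.9% and 5.12% of all loci. DIN10 (AT5G20250), a raffinose synthase-like gene named for its induction by dark, stood at 648, 501 and 579.7 FPKM at 21 DAS and 122, 43.3 and 61.4 FPKM at 35 DAS. The ages were far apart without overlap, and the difference was -3.04 (SE 0.36, adjusted p = 6.86e-08). DIN10 averaged 11.0, 53.6, 46.6, 6.88, 576 and 30.5 FPKM over ZT1 to ZT21 at 21 DAS and 2.52, 38.4, 6.95, 6.94, 75.6 and 29.2 FPKM at 35 DAS, so both ages had their highest value at ZT17 but at very different heights. Relative to the other times the difference was -1.99 (SE 0.40, adjusted p = 0.00108). TPS11 (AT2G18700, chr2:8109043-8112010) and TPS10 (AT1G60140), trehalose-phosphate synthase-like proteins that respond to sugar status, fell too. TPS11 stood at 45.6, 63.5 and 60.7 FPKM against 16.0, 13.8 and 11.99 FPKM, a difference of -1.94 (SE 0.34, adjusted p = 1.8e-05), and of -1.79 (SE 0.37, adjusted p = 0.00157) relative to the other times. TPS10 stood at 44.3, 39.0 and 46.0 FPKM against 25.7, 28.7 and 20.5 FPKM, a difference of -0.77 (SE 0.20, adjusted p = 0.00127), and of -1.43 (SE 0.22, adjusted p = 4.32e-05) relative to the other times.

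The list did not move as a block. BCAT2 (AT1G10070), a mitochondrial enzyme of branched-chain amino acid breakdown, stood at 0.453, 0.292 and 0.0763 FPKM at 21 DAS and 33.9, 41.4 and 36.6 FPKM at 35 DAS, a difference of 4.92 (SE 0.33, adjusted p = 2.15e-12); it overlaps AT1G10090. SEN1 (AT4G35770), a dark- and senescence-induced gene, rose from 6.83, 13.6 and 6.77 FPKM to 164, 45.02 and 55.2 FPKM, by 2.97 (SE 0.62, adjusted p = 0.00018). Neither had a called difference from the other times (0.60 and 0.43). EXL2 (AT5G64260), an exordium-like gene, stood at 39.9, 65.7 and 57.5 FPKM and 92.0, 173 and 72.7 FPKM and was not called at ZT17. Relative to the other times its age effect was lower, a difference of -1.48 (SE 0.34, adjusted p = 0.00419).

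BT1, BT2 and BT4 encode BTB and TAZ domain proteins that respond to light, sugar and nitrogen. BT4 (AT5G67480) stood at 269, 368 and 376 FPKM at 21 DAS and 107, 39.3 and 69.7 FPKM at 35 DAS, a difference of -2.31 (SE 0.23, adjusted p = 3.75e-09). BT1 (AT5G63160, chr5:25333263-25335485) stood at 74.2, 98.6 and 94.5 FPKM and 22.3, 7.42 and 13.0 FPKM, a difference of -2.67 (SE 0.29, adjusted p = 1.01e-08). BT2 (AT3G48360) stood at 288, 474 and 489 FPKM and 71.3, 12.6 and 50.04 FPKM, a difference of -3.46 (SE 0.44, adjusted p = 2e-07). Each fell without overlap, and 35 DAS replicate 2 was the lowest library for all 3. Relative to the other times the differences were -2.72 (SE 0.25, adjusted p = 4.59e-08) for BT4 and -2.40 (SE 0.31, adjusted p = 5.88e-06) for BT1. For BT2 the value was -1.41 (SE 0.49, adjusted p = 0.049), and without 35 DAS replicate 2 it was -0.69 (adjusted p = 0.329). Without 21 DAS replicate 2 or 21 DAS replicate 3 it was -1.303 (adjusted p = 0.132) and -1.28 (adjusted p = 0.135), so the BT2 call depends on each of these 3 libraries. It was also lost with a pseudocount of 0.1 (-1.13, adjusted p = 0.281) and with no filter on low values (adjusted p = 0.0699). At 21 DAS, BT2 and BT4 had their highest mean at ZT17, while BT1 was higher at ZT1 (182 FPKM) than at ZT17 (89.1 FPKM). BT4 averaged 5.65, 12.6, 58.6, 50.7, 338 and 43.1 FPKM over the 6 times at 21 DAS and 7.19, 27.3, 78.6, 52.1, 71.9 and 51.6 FPKM at 35 DAS, a single high point at ZT17 that 35 DAS leaves did not have.

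Several wall genes were also high at ZT17 at 21 DAS and low at 35 DAS. Of the 20 expansins and wall-loosening enzymes tested, 3 had a lower age effect at ZT17 than over the other times and 5 a higher one, so the genes described here do not stand for the list. EXLA1 (AT3G45970, chr3:16896166-16897308), an expansin-like gene that overlaps AT3G45980, stood at 142, 287 and 309 FPKM at 21 DAS and 17.7, 9.07 and 4.55 FPKM at 35 DAS, a difference of -4.52 (SE 0.36, adjusted p = 5.46e-11). At the other 5 times its 21 DAS mean was between 5.22 and 30.5 FPKM. XTH22 (AT5G57560), the touch-induced xyloglucan enzyme TCH4, stood at 86.7, 126 and 153 FPKM and 6.22, 4.40 and 9.78 FPKM, a difference of -3.997 (SE 0.34, adjusted p = 1.79e-10). EXO (AT4G08950), a growth-associated wall protein, stood at 39.2, 107 and 107 FPKM and 0.973, 4.56 and 4.18 FPKM, a difference of -4.34 (SE 0.42, adjusted p = 1.77e-09). In all 3 genes the highest 35 DAS library was below the lowest 21 DAS library. XTH33 (AT1G10550) stood at 14.1, 15.4 and 17.5 FPKM and 0.210, 0 and 0.237 FPKM, a difference of -3.86 (SE 0.24, adjusted p = 5.5e-13). Compared with the other times the age effects were -2.79, -2.71, -2.99 and -2.57 for EXLA1, XTH22, EXO and XTH33 (adjusted p = 1.62e-05, 1.06e-05, 5.58e-05 and 1.69e-07). All 4 had their highest 21 DAS mean at ZT17. PYL5 (AT5G05440), an abscisic acid receptor, also had its highest 21 DAS mean there. It stood at 143, 93.7 and 91.3 FPKM at 21 DAS and 52.0, 8.58 and 34.7 FPKM at 35 DAS, a difference of -2.04 (SE 0.37, adjusted p = 2.72e-05) at ZT17 and of -2.64 (SE 0.40, adjusted p = 5.15e-05) relative to the other times. AT4G16563 and AT1G50040, which have no gene name here, were lower relative to the other times, at -2.91 (SE 0.31, adjusted p = 2.94e-07) and -2.90 (SE 0.27, adjusted p = 3.3e-08).

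The promoter windows of EXLA1, BT1 and TPS11 are shown because each holds the CGCG box, searched as CGCGT on both strands. CGCG boxes are the core of sites bound by calmodulin-binding transcription activators in rapid stress responses. The capitals mark the match: it begins 135 bases before the start in EXLA1 (chr3:16895916-16896165, plus strand), where matches on both strands overlap. It begins 53 bases before the start in BT1 (chr5:25335571-25335820, minus strand) and 175 bases in TPS11 (chr2:8108648-8108897, plus strand).
EXLA1: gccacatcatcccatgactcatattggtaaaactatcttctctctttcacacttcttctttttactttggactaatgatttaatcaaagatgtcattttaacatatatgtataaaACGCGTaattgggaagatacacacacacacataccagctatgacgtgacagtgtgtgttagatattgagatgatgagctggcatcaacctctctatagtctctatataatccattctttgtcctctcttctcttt
BT1: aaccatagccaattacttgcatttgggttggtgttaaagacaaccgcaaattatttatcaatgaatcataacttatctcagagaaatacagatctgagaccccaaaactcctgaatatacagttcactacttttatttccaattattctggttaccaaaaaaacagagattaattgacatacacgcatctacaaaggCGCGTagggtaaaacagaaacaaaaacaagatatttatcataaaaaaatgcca
TPS11: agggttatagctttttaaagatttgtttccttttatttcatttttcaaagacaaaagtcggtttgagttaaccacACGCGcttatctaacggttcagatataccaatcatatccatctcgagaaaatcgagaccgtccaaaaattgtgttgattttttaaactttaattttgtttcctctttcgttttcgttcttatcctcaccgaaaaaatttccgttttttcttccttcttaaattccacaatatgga
The box was present in 164 (12.8%) of the 1282 promoters of loci whose age effect was lower at ZT17 than over the other times. It was present in 4.75% of the 947 promoters with a higher difference and in 7.49% of all 18443. The evening element AAAATATCT, a site of clock MYB factors, was found in 3.2%, 2.43% and 2.61% of the same sets, and the W-box core TTGACC in 12.6%, 15.2% and 12.2%. By list, the CGCG box was present in 8% of dark- and starvation-induced, 5% of expansin and wall-loosening and 14.3% of morning clock promoters. It was present in 6.25% of light signalling and 3.23% of abscisic acid promoters. No test was made of these shares.

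**Figure D4:**
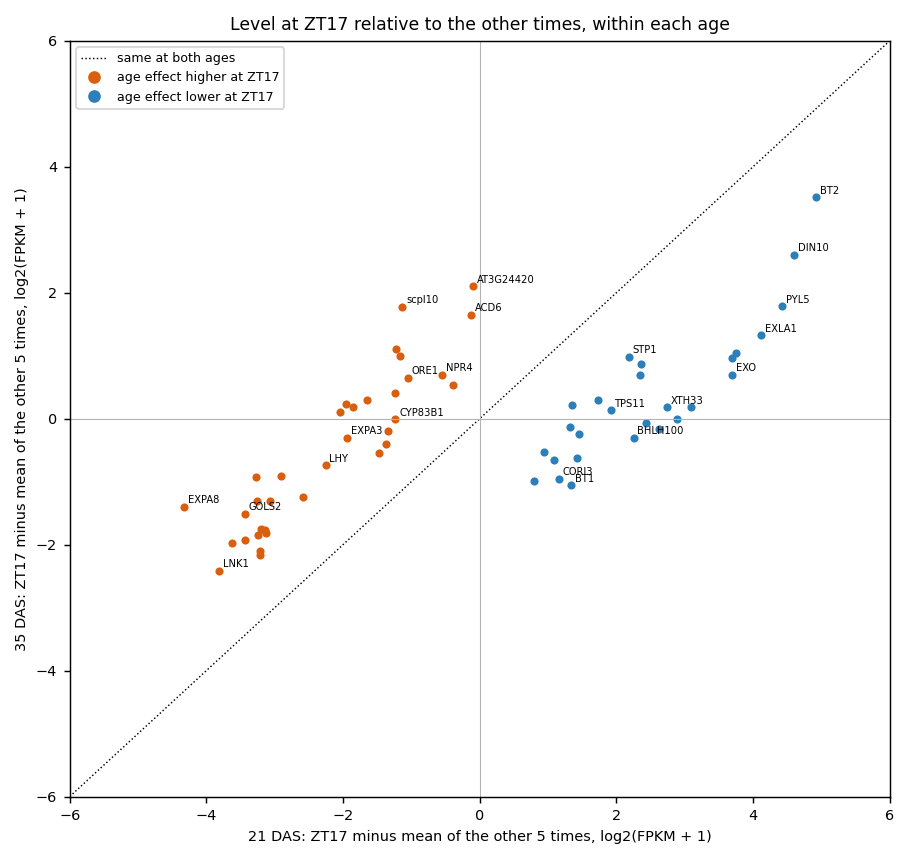
Level at ZT17 minus the mean of the other 5 times, in log2(FPKM + 1), at 21 DAS (x) and 35 DAS (y). Points are the loci flagged below for their age effect difference from the other 5 times, and some carry labels. They are a part of the 958 higher and 1293 lower loci called. On the dotted line the 2 ages would be equal. Orange loci lie above it: some, such as LNK1, have a trough at 21 DAS that is shallower at 35 DAS, while AT3G24420 and ACD6 are near 0 at 21 DAS and above 0 at 35 DAS. Blue loci such as EXLA1 lie below it and to the right, with a peak at 21 DAS that is lower at 35 DAS. The loci were chosen by this difference, so their distance from the line is a description.

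Starch and sugar genes changed less uniformly. Of 18 starch degradation enzymes 2 rose and 7 fell, and of 17 starch synthesis enzymes 1 rose and 8 fell, against 18.4% falling among all loci. Without 21 DAS replicate 2 or 35 DAS replicate 2 no degradation enzyme rose, and without 21 DAS replicate 3 only 1 did. LSF2 (AT3G10940), a phosphoglucan phosphatase, stood at 70.4, 71.5 and 84.0 FPKM at 21 DAS and 25.6, 36.2 and 29.7 FPKM at 35 DAS, a difference of -1.29 (SE 0.18, adjusted p = 5.23e-07). PHS1 (AT3G29320), the plastid glucan phosphorylase, fell by 1.07 (SE 0.16, adjusted p = 1.62e-06); it overlaps AT3G29330. PGM (AT5G51820) and PGI1 (AT4G24620), which feed hexose phosphate into starch synthesis, fell, with differences of -1.29 (SE 0.19, adjusted p = 1.27e-06) and -1.12 (SE 0.12, adjusted p = 7.39e-09). GBSS1 (AT1G32900), the clock-driven amylose synthase, was the 1 synthesis gene that rose, from 18.9, 13.8 and 22.4 FPKM to 89.8, 157 and 84.9 FPKM, by 2.49 (SE 0.37, adjusted p = 1.92e-06). BAM5 (AT4G15210), a beta-amylase, stood at 1.52, 3.75 and 1.53 FPKM at 21 DAS and was listed at 0 in all 35 DAS libraries.

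Of 19 genes of sucrose synthesis and sugar transport 3 rose (15.8%) and 5 fell (26.3%), against 27% and 18.4% of all loci. STP13 (AT5G26340), a hexose importer of stressed and dying cells, stood at 21.4, 21.2 and 18.0 FPKM at 21 DAS and 143, 166 and 209 FPKM at 35 DAS, a difference of 3.02 (SE 0.42, adjusted p = 7.37e-07). SWEET2 (AT3G14770), a vacuolar sugar transporter, fell from 40.7, 23.57 and 21.5 FPKM to 4.95, 2.95 and 5.33 FPKM, a difference of -2.42 (SE 0.23, adjusted p = 1.8e-09). ERDL6 (AT1G75220), a vacuolar glucose exporter, fell from 98.4, 94.3 and 94.3 FPKM to 40.2, 23.3 and 35.9 FPKM, a difference of -1.54 (SE 0.15, adjusted p = 1.75e-09), and its difference from the other times was -1.13 (SE 0.16, adjusted p = 2.26e-05). STP1 (AT1G11260), the main hexose importer of leaves, stood at 173, 203 and 162 FPKM and 134, 79.6 and 72.7 FPKM, a difference of -0.95 (SE 0.29, adjusted p = 0.00635). Its difference from the other times was -1.21 (SE 0.32, adjusted p = 0.0115). That call was lost without 21 DAS replicate 2 (-1.12), 35 DAS replicate 2 (-1.11) or 35 DAS replicate 3 (-1.04). Of 25 nitrogen assimilation genes, which include BT1 and BT2, 5 rose (20%) and 9 fell (36%), against the same shares of all loci. The cytosolic glutamine synthetases GLN1;4 (AT5G16570) and GLN1;1 (AT5G37600), which make glutamine for nitrogen export, rose. GLN1;4 stood at 9.53, 4.82 and 5.57 FPKM at 21 DAS and 111, 111 and 131 FPKM at 35 DAS, a difference of 4.003 (SE 0.64, adjusted p = 5.43e-06). GLN1;1 stood at 87.8, 76.7 and 65.0 FPKM and 358, 652 and 519 FPKM, a difference of 2.69 (SE 0.49, adjusted p = 3.63e-05).

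Photosynthesis genes were lower at 35 DAS almost throughout. All 32 photosystem and electron transport genes tested fell, as did 16 of 21 antenna genes, 20 of 22 Calvin cycle genes and 11 of 15 photorespiration enzymes. One Calvin cycle gene rose, or 2 without replicate 3 of either age. The list medians were -1.48, -1.29, -1.03 and -0.72. PSBQ1 (AT4G21280), of the oxygen-evolving complex of photosystem II, stood at 1956, 2410.5 and 2130.3 FPKM at 21 DAS and 389, 277 and 391 FPKM at 35 DAS, a difference of -2.63 (SE 0.22, adjusted p = 1.29e-10). PSAG (AT1G55670), of photosystem I, fell by 2.32 (SE 0.20, adjusted p = 2.76e-10). The Rubisco small subunit RBCS1A fell from 22076, 23142 and 20130.0 FPKM to 5065, 3916 and 5731 FPKM, a difference of -2.17 (SE 0.28, adjusted p = 1.99e-07). RBCS3B (AT5G38410) fell by 2.98 (SE 0.34, adjusted p = 2.96e-08), but its reads are shared in part with near-identical copies. GLDT (AT1G11860), a glycine decarboxylase subunit, fell by 1.66 (SE 0.24, adjusted p = 1.4e-06). No photosystem, Calvin cycle or photorespiration gene had a called difference from the other 5 times, which does not show that the age effects were equal, and 4 of 21 antenna genes had a higher one. Against ZT21, 10 of 21 antenna genes had a higher age effect at ZT17, against 2.7% of all loci. A higher age effect can be a smaller fall. LHCB1.1 (AT1G29920) was the highest of all loci by the naming rule there, at 4.19 (SE 0.64, adjusted p = 0.000108). It stood at 15.9, 50.4 and 42.0 FPKM at 21 DAS and 12.7, 8.60 and 10.7 FPKM at 35 DAS at ZT17, and it has near-identical copies that can share reads. At ZT17 LHCB1.1 fell, with a difference of -1.53 (SE 0.45, adjusted p = 0.00453), so its fall was smaller there than at ZT21.

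Chlorophyll synthesis enzymes fell in 21 of 25 cases and rose in 2, and chlorophyll breakdown genes rose in 7 of 12 cases with none falling. DVR (AT5G18660), the divinyl reductase, fell from 99.6, 82.8 and 95.7 FPKM to 10.8, 9.22 and 16.4 FPKM, a difference of -2.87 (SE 0.36, adjusted p = 1.5e-07). PORB (AT4G27440), the light-dependent protochlorophyllide reductase, fell by 2.18 (SE 0.23, adjusted p = 9.63e-09). CAO (AT1G44446), which makes chlorophyll b, went the other way. It stood at 12.3, 20.7 and 19.4 FPKM at 21 DAS and 31.4, 34.1 and 27.6 FPKM at 35 DAS, a difference of 0.82 (SE 0.14, adjusted p = 1.97e-05). Without 21 DAS replicate 1, which was the lowest library, the ZT17 call was lost (0.60) and 1 enzyme instead of 2 rose, while the difference of CAO from the other times was 1.34 (SE 0.16, adjusted p = 1.72e-06) with all libraries. NYE2 (AT4G11910) and NYE1 (AT4G22920), which remove magnesium from chlorophyll, rose. NYE2 stood at 1.09, 0.426 and 0.362 FPKM and 29.8, 44.1 and 26.0 FPKM, a difference of 4.39 (SE 0.36, adjusted p = 1.18e-10). NYE1 stood at 13.2, 9.25 and 11.3 FPKM and 59.6, 76.2 and 45.5 FPKM, a difference of 2.304 (SE 0.30, adjusted p = 3.09e-07). CYP89A9 (AT3G03470), which modifies chlorophyll catabolites, rose by 2.62 (SE 0.36, adjusted p = 6.74e-07).

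Of 25 senescence regulators and senescence-associated genes, 19 rose and none fell, and the median was 1.75 (1.54 after rescaling). ORE1 (AT5G39610), the NAC factor that promotes age-dependent leaf death, stood at 1.16, 2.23 and 0.935 FPKM at 21 DAS and 92.2, 90.6 and 63.2 FPKM at 35 DAS, a difference of 5.10 (SE 0.41, adjusted p = 6.5e-11). It was the 1 member whose age effect at ZT17 exceeded that of the other times, by 1.71 (SE 0.44, adjusted p = 0.00991). NAP (AT1G69490), a NAC factor upstream of chlorophyll breakdown, rose from a range of 1.19 to 2.42 FPKM to 62.0, 141 and 39.3 FPKM, by 4.64 (SE 0.58, adjusted p = 1.2e-07). JUB1 (AT2G43000), a NAC factor that delays senescence, rose from 0.577, 0.483 and 0.851 FPKM to 8.16, 15.2 and 29.1 FPKM, by 3.34 (SE 0.46, adjusted p = 6.99e-07). SAG13 (AT2G29350), a marker of early senescence, rose from 1.51, 1.38 and 0.894 FPKM to 30.6, 67.4 and 108 FPKM, by 4.78 (SE 0.77, adjusted p = 6.52e-06). The 35 DAS libraries of NAP, JUB1 and SAG13 differed widely among themselves, yet each lay above all 21 DAS libraries. SAG20 (AT3G10985) was not called at ZT17 (0.35), and its age effect was lower than at the other times, at -1.64 (SE 0.18, adjusted p = 4.76e-07). Of 29 autophagy genes 15 rose and none fell. ATG8B (AT4G04620) and ATG8G (AT3G60640), membrane tags of the autophagosome, rose by 2.26 (SE 0.22, adjusted p = 2.03e-09) and 1.92 (SE 0.18, adjusted p = 1.14e-09). Their relative ATG8E (AT2G45170) was not called (-0.28) and had a lower age effect than at the other times, a difference of -1.28 (SE 0.25, adjusted p = 0.000989).

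In the list of 31 genes for abscisic acid and dehydration, 24 were called higher and 3 lower, and its median was 1.22 (0.88 after rescaling). Without 35 DAS replicate 3 none was lower. ATHB7 (AT2G46680), a homeodomain factor of the water-deficit response, stood at 2.86, 3.45 and 4.08 FPKM at 21 DAS and 38.3, 75.0 and 29.7 FPKM at 35 DAS, a difference of 3.35 (SE 0.31, adjusted p = 8.93e-10). ABF3 (AT4G34000), a bZIP factor that binds abscisic acid response elements, rose from 3.95, 5.72 and 6.31 FPKM to 32.3, 52.3 and 23.8 FPKM, by 2.501 (SE 0.23, adjusted p = 6.77e-10), and by 1.15 (SE 0.25, adjusted p = 0.00236) relative to the other times. ABI2 (AT5G57050), a phosphatase that restrains the pathway, rose by 1.53 (SE 0.19, adjusted p = 1.76e-07) and by 0.93 (SE 0.21, adjusted p = 0.00394) relative to the other times. Among 14 cold-regulated genes 6 rose (42.9%) and 1 fell (7.14%), against 27% and 18.4% of all loci. The fall was not called without 21 DAS replicate 2 or 3 or 35 DAS replicate 1 or 3. The risers included GOLS2 (AT1G56600), a galactinol synthase that makes the precursor of raffinose. GOLS2 stood at 0.697, 0.7003 and 0.817 FPKM at 21 DAS and 65.0, 112 and 53.4 FPKM at 35 DAS, a difference of 5.41 (SE 0.34, adjusted p = 7.19e-13). Its 21 DAS mean was 0.738 FPKM at ZT17 and 37.3 FPKM at ZT13, a drop that was shallower at 35 DAS, where the means were 76.9 and 247 FPKM. Relative to the other times the difference was 1.93 (SE 0.37, adjusted p = 0.000745), which was 0.61 and not called with a pseudocount of 5. CBF1 (AT4G25490), an activator of cold genes, rose from 0.194, 0.102 and 0.283 FPKM to 5.90, 5.02 and 3.36 FPKM, by 2.25 (SE 0.22, adjusted p = 2.83e-09). The cold-induced COR15B (AT2G42530) had a lower age effect than at the other times, at -1.78 (SE 0.32, adjusted p = 0.000317).

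Of 25 salicylic acid and defence genes 12 rose and none fell, but the 35 DAS libraries differed widely. The mean log2(FPKM + 1) of the list was 4.06, 5.40 and 6.64 in 35 DAS replicates 1, 2 and 3 and between 3.28 and 3.41 at 21 DAS. Without 35 DAS replicate 3 the count that rose was 5, and without 35 DAS replicate 1 it was 20. WRKY60 (AT2G25000), a defence regulator, rose from 2.02, 1.97 and 1.97 FPKM to 20.6, 37.0 and 40.6 FPKM, by 3.44 (SE 0.38, adjusted p = 1.47e-08). NPR4 (AT4G19660), a salicylic acid receptor, rose from 11.1, 9.54 and 14.1 FPKM to 49.0, 42.3 and 54.1 FPKM, by 1.98 (SE 0.23, adjusted p = 4.85e-08), and by 1.25 (SE 0.25, adjusted p = 0.00135) relative to the other times. ACD6 (AT4G14400), a membrane protein that promotes salicylic acid accumulation, rose from 235, 185 and 201 FPKM to 1012, 512 and 899 FPKM, by 1.91 (SE 0.44, adjusted p = 0.000472). Its difference from the other times was 1.77 (SE 0.48, adjusted p = 0.0129), and without 35 DAS replicate 1 it was 1.58 (adjusted p = 0.0513). CBP60g (AT5G26920), a regulator of salicylic acid synthesis, stood at 9.23, 6.77 and 6.34 FPKM at 21 DAS and 46.3, 82.0 and 176 FPKM at 35 DAS, a difference of 3.41 (SE 0.58, adjusted p = 1.22e-05).

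Of 32 jasmonate genes, 9 rose (28.1%) and 7 fell (21.9%) at ZT17, near the 27% and 18.4% of all loci. Of the same genes, 11 (against 6.9% of all loci) had a lower age effect than at the other times and 1 a higher one. JMT (AT1G19640), which methylates jasmonate, stood at 9.39, 11.0 and 10.7 FPKM at 21 DAS and 0.627, 0.643 and 0.627 FPKM at 35 DAS, a difference of -2.80 (SE 0.16, adjusted p = 2.38e-13). CORI3 (AT4G23600), a jasmonate-induced gene, stood at 263, 337 and 332 FPKM and 106, 97.1 and 105.3 FPKM, a difference of -1.58 (SE 0.32, adjusted p = 0.000113). JAZ10 (AT5G13220), a repressor of the pathway that the hormone itself induces, stood at 1.92, 3.40 and 1.77 FPKM and 0.128, 0.879 and 0.696 FPKM, a difference of -1.102 (SE 0.32, adjusted p = 0.0039). Against the other times the differences were -2.12 (SE 0.35, adjusted p = 0.000129) for CORI3 and -1.74 (SE 0.35, adjusted p = 0.00112) for JAZ10. CORI3 averaged 35.5, 128, 192, 596, 311 and 103 FPKM over ZT1 to ZT21 at 21 DAS and 136, 269.9, 491, 354, 103 and 62.9 FPKM at 35 DAS, so the older leaves were above the younger ones until ZT9 and below them from ZT13 on. The biosynthetic genes AOC1 (AT3G25760) and OPR3 (AT2G06050) were lower relative to the other times, at -1.48 (SE 0.29, adjusted p = 0.00104) and -1.45 (SE 0.23, adjusted p = 6.85e-05). MYC2 (AT1G32640), the main transcription factor of the pathway, rose from 9.73, 15.4 and 14.9 FPKM to 38.5, 59.3 and 40.5 FPKM, by 1.71 (SE 0.21, adjusted p = 1.18e-07).

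Of 17 ethylene genes 8 rose (47.1%) and 2 fell (11.8%), against 27% and 18.4% of all loci. Without 35 DAS replicate 1 or 35 DAS replicate 3 the count that rose was 5. EIN2 (AT5G03280), the central signal transducer, rose from 16.4, 12.8 and 15.1 FPKM to 39.2, 45.1 and 34.7 FPKM, by 1.37 (SE 0.15, adjusted p = 2.25e-08). Cytokinin genes fell in 11 of 21 cases and rose in 6. ARR6 (AT5G62920) and ARR7 (AT1G19050), response regulators that cytokinin induces, fell steeply. ARR6 stood at 30.9, 62.0 and 53.4 FPKM at 21 DAS and 0.808, 0.153 and 0.144 FPKM at 35 DAS, a difference of -5.16 (SE 0.35, adjusted p = 3.32e-12). ARR7 stood at 57.9, 93.4 and 73.7 FPKM and 4.71, 1.81 and 2.86 FPKM, a difference of -4.24 (SE 0.31, adjusted p = 1.65e-11). Both had their highest 21 DAS mean at ZT17, and relative to the other times the differences were -2.05 (SE 0.38, adjusted p = 0.000561) and -1.70 (SE 0.34, adjusted p = 0.00122). AHP4 (AT3G16360), a phosphotransfer protein, went the opposite way, from 1.104, 0.372 and 1.16 FPKM to 62.1, 65.4 and 55.8 FPKM, a difference of 5.07 (SE 0.24, adjusted p = 4.29e-15). LOG7 (AT5G06300), which releases active cytokinin, rose by 2.54 (SE 0.23, adjusted p = 7.7e-10). Among 27 auxin and brassinosteroid genes 5 rose (18.5%) and 10 fell (37%), against 27% and 18.4% of all loci. Without 35 DAS replicate 2 the count that rose was 3. GH3.5 (AT4G27260), which conjugates auxin, rose from 0.310, 0.786 and 0.825 FPKM to 9.29, 9.98 and 5.24 FPKM, by 2.46 (SE 0.37, adjusted p = 2.37e-06). IAA7 (AT3G23050), an auxin-response repressor, fell from 73.8, 98.0 and 94.3 FPKM to 28.4, 9.53 and 21.6 FPKM, a difference of -2.22 (SE 0.21, adjusted p = 1.57e-09). PRE1 (AT5G39860), a growth-promoting HLH protein, was below 1.1 FPKM in all ZT17 libraries and was not called at ZT17 (-0.13). Its age effect was higher than at the other times by 2.35 (SE 0.35, adjusted p = 3.53e-05). BAS1 (AT2G26710), which inactivates brassinosteroids, was higher relative to the other times by 1.64 (SE 0.17, adjusted p = 2.4e-07).

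Glucosinolates are the sulfur-rich defence compounds of the cabbage family, and myrosinases release their toxic products. The synthesis genes named here rose, while both myrosinases fell. Of 22 glucosinolate genes 9 rose and 3 fell, and 11 had a higher age effect than at the other times, against 5.12% of all loci. CYP83B1 (AT4G31500), which makes the indole glucosinolate core, stood at 100.2, 106 and 99.7 FPKM at 21 DAS and 565, 360.5 and 508 FPKM at 35 DAS, a difference of 2.19 (SE 0.16, adjusted p = 1.79e-11). SUR1 (AT2G20610), a C-S lyase shared by all glucosinolates, stood at 38.9, 50.2 and 48.0 FPKM and 118, 90.6 and 93.5 FPKM, a difference of 1.12 (SE 0.16, adjusted p = 8.5e-07). Both were lowest at ZT17 among the 6 times at 21 DAS: CYP83B1 averaged 225, 195, 257, 388, 102 and 194 FPKM at 21 DAS and 437, 617, 491, 495, 478 and 371 FPKM at 35 DAS. Against the other times the differences were 1.22 (SE 0.18, adjusted p = 2.98e-05) for CYP83B1 and 0.97 (SE 0.17, adjusted p = 0.000336) for SUR1. MAM3 (AT5G23020), which elongates aliphatic side chains, rose by 1.76 (SE 0.38, adjusted p = 0.000257). TGG1 (AT5G26000) and TGG2 (AT5G25980), the leaf myrosinases, fell. TGG1 stood at 1005, 1582 and 1576 FPKM at 21 DAS and 63.9, 87.3 and 76.4 FPKM at 35 DAS, a difference of -4.16 (SE 0.20, adjusted p = 8.49e-15), with no called difference from the other times (0.01).

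Flavonoid and anthocyanin genes rose in 9 of 20 cases and fell in 2, and a single library stood apart: 35 DAS replicate 2 was the highest 35 DAS library for 19 of the 20. Without it 6 rose and 4 fell, and the median was 0.39 instead of 1.94. DFR (AT5G42800), the dihydroflavonol reductase of the anthocyanin branch, stood at 0.271, 0.278 and 0.381 FPKM at 21 DAS and 25.4, 830.2 and 22.2 FPKM at 35 DAS. The ages did not overlap, and the difference was 5.93 (SE 1.46, adjusted p = 0.000902). LDOX (AT4G22880), the next enzyme, stood at 0, 0.228 and 0.309 FPKM and 17.8, 743 and 12.5 FPKM, a difference of 5.62 (SE 1.36, adjusted p = 0.000801). PAP2 (AT1G66390), a MYB activator of the branch, was listed at 0 in all 21 DAS libraries and stood at 25.7, 109 and 21.2 FPKM at 35 DAS. PAL1 (AT2G37040), the entry enzyme, stood at 10.4, 10.7 and 12.2 FPKM and 7.002, 98.0 and 8.63 FPKM and was not called at ZT17. Its difference from the other times was 2.33 (SE 0.74, adjusted p = 0.0325) and became 1.16 (adjusted p = 0.246) without 35 DAS replicate 2. The call was also lost without any one of the 3 libraries of 21 DAS, at 2.29, 2.31 and 2.39 for replicates 1, 2 and 3.

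**Figure D5:**
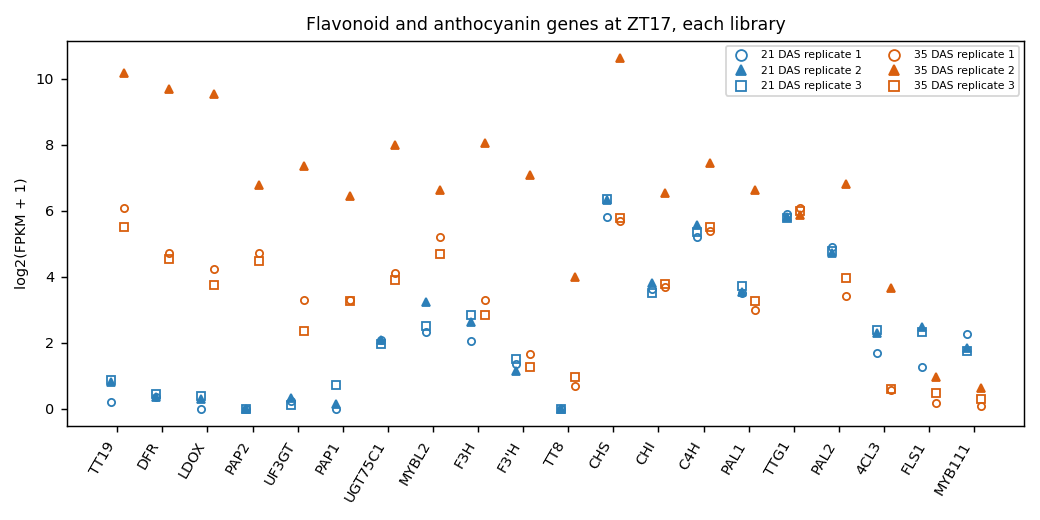
log2(FPKM + 1) at ZT17 of the 20 flavonoid and anthocyanin genes tested, in order of their log2 fold change, with 1 symbol per library (blue 21 DAS, orange 35 DAS, filled triangle replicate 2). The filled orange triangle, 35 DAS replicate 2, is the highest 35 DAS symbol for 19 of the 20 genes.

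Growth-related lists were lower. Expansins and wall-loosening enzymes fell in 18 of 20 cases, with a median of -1.95. The other 2 rose. None rose without 21 DAS replicate 3 or 35 DAS replicate 2, and 1 did without 21 DAS replicate 2 or 35 DAS replicate 1. XTH4 (AT2G06850), a wall-remodelling enzyme, stood at 662, 701 and 746 FPKM at 21 DAS and 90.2, 7.22 and 30.7 FPKM at 35 DAS, a difference of -4.61 (SE 0.44, adjusted p = 1.21e-09). XTH16 (AT3G23730), of the same family, stood at 8.84, 25.6 and 26.0 FPKM and 0.788, 0.457 and 0.666 FPKM, a difference of -3.56 (SE 0.31, adjusted p = 2.67e-10), and of -2.501 (SE 0.34, adjusted p = 9.27e-06) relative to the other times. EXPA3 (AT2G37640) and EXPA8 (AT2G40610), expansins already low at 21 DAS, stood at 2.52, 3.56 and 3.08 and 4.35, 6.00 and 4.13 FPKM and fell, with differences of -1.58 (SE 0.23, adjusted p = 1.42e-06) and -2.36 (SE 0.47, adjusted p = 9.89e-05). They are among the 5 members with a higher age effect at ZT17 than at the other times, with differences of 1.64 and 2.92, the latter not called with a pseudocount of 0.1 (1.96). EXPA8 was near 0 at 35 DAS (0.0864, 0 and 0.306 FPKM), and the log2(FPKM + 1) scale understates the change of low genes. Aquaporins, the water channels, fell in 13 of 18 cases and rose in 1. TIP2;1 (AT3G16240), a vacuolar channel for water and ammonia that overlaps AT3G16250, stood at 583, 860.1 and 617 FPKM at 21 DAS and 13.5, 9.14 and 10.12 FPKM at 35 DAS, a difference of -5.85 (SE 0.28, adjusted p = 4.92e-15). PIP1;3 (AT1G01620), of the plasma membrane, fell by 3.37 (SE 0.28, adjusted p = 1.13e-10). Of 23 cell proliferation genes 18 fell and none rose, among them CYCD3;1 (AT4G34160), a D-type cyclin, which fell from 3.53, 5.70 and 5.34 FPKM to 0.831, 0.878 and 1.297 FPKM, a difference of -1.54 (SE 0.16, adjusted p = 8.3e-09).

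Guard cell, epidermis and xylem markers were lower in sum at 35 DAS, while the phloem sums of the 2 ages overlapped. A sum weighs the most abundant members most. The list medians were -0.51 for guard cell, -0.03 for epidermis and trichome, -1.37 for xylem and -0.05 for phloem markers, against 0.33 for all loci. Summed over all members of a list, tested or not, the 16 guard cell markers lay at 319.59 to 338.57 FPKM at 21 DAS and 115.64 to 195.33 FPKM at 35 DAS (EPF2 and MUTE at 0). Epidermis and trichome markers lay at 1003 to 1219 FPKM and 492 to 673 FPKM (GL1 at 0), phloem markers at 872 to 954 FPKM and 901 to 1033 FPKM, and xylem markers at 30.1 to 43.4 FPKM and 2.80 to 3.77 FPKM. All 8 xylem markers tested fell, as did 5 of 12 guard cell, 4 of 10 epidermis and 3 of 8 phloem markers. Among all loci 18.4% fell and 27% rose. Relative to the other times, 5 epidermis, 3 guard cell and 1 phloem marker had a higher age effect, and 1 guard cell marker a lower one. Among all loci these shares were 5.12% and 6.9%. One marker each of guard cells, epidermis and phloem rose, as did PYK10 (AT3G09260), 1 of 2 root markers tested, which overlaps AT3G09250, from 0, 0.104 and 0.282 FPKM to 1.23, 3.69 and 1.15 FPKM, while neither of the 2 flower markers was called. The guard cell rise was lost without replicate 1 of either age and the epidermis rise without 21 DAS replicate 1. The root rise was lost without 21 DAS replicate 1 or 2 or 35 DAS replicate 2, and 1 flower marker rose without 35 DAS replicate 3. Without both ZT17 libraries that hold AT2G01021, the calls of PYK10, the guard cell marker SLAC1 and the epidermis and trichome marker CPC were lost. Their part in the results above was not tested. Of 12 heat shock genes 3 rose (25%, near the 27% of all loci) and 1 fell, and 3 fell without 21 DAS replicate 1. Of 14 genes used as references in other work 2 rose and 2 fell: UBQ10 (AT4G05320) rose by 0.88 (SE 0.14, adjusted p = 5.65e-06) and ACT2 (AT3G18780) fell by 0.56 (SE 0.11, adjusted p = 6.74e-05).

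Among the loci with the largest rises by the naming rule (12 in each direction, averaging at least 5 FPKM, ages not overlapping) were several stress genes. CML41 (AT3G50770), a calmodulin-like protein, stood at 5.69, 4.66 and 4.82 FPKM at 21 DAS and 357, 608 and 301 FPKM at 35 DAS, a difference of 6.06 (SE 0.52, adjusted p = 2.36e-10). HIS1-3 (AT2G18050), a drought-induced linker histone, stood at 11.7, 8.96 and 9.10 FPKM and 447, 566 and 342 FPKM, a difference of 5.35 (SE 0.30, adjusted p = 1.04e-13). DR4 (AT1G73330), a protease inhibitor-like gene, stood at 1.302, 0.113 and 0.763 FPKM and 53.1, 138 and 38.6 FPKM, a difference of 5.33 (SE 0.48, adjusted p = 6.07e-10). The anthocyanin genes TT19, DFR, LDOX and PAP2 and GOLS2 were also in this group, together with AT1G34060, AT5G39520, AT3G48020 and AT4G01390. AT5G39520, which overlaps AT5G39510, was listed at 0 in all 21 DAS libraries and stood at 46.2, 126 and 19.8 FPKM at 35 DAS.

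The 12 largest falls included 3 arabinogalactan proteins, glycoproteins of the growing cell surface. AGP21 (AT1G55330) stood at 346, 524 and 449 FPKM at 21 DAS and 4.52, 2.02 and 6.24 FPKM at 35 DAS, a difference of -6.46 (SE 0.33, adjusted p = 2.19e-14). AGP17 (AT2G23130) stood at 77.0, 151 and 138 FPKM and 0.888, 0.836 and 0.437 FPKM, a difference of -6.11 (SE 0.28, adjusted p = 2.42e-15). AGP18 (AT4G37450) stood at 111, 143 and 136 FPKM and 3.21, 0.787 and 0.855 FPKM, a difference of -5.76 (SE 0.32, adjusted p = 8.86e-14). GER3 (AT5G20630), a germin-like protein, stood at 42.3, 128 and 115 FPKM at 21 DAS and was listed at 0 in all 35 DAS libraries. AT3G16670 stood at 26.4, 69.8 and 58.9 FPKM and was likewise listed at 0. AT4G15700 and AT4G15680, close relatives that can share reads, fell, with differences of -5.56 and -5.15. The remaining falls were AT2G10940, TGG2, TIP2;1, AT1G66100 and ARR6.

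Compared with ZT13, the last sampling in the light, the age effect at ZT17 was higher for 933 loci (4.98%) and lower for 821 (4.38%). By scaling, the share of higher loci among those called was 60.7% as deposited and 42.9% after rescaling. Without 21 DAS replicate 2 the higher count was 606. The lowest values belonged to the wall genes XTH22 at -4.69 (SE 0.48, adjusted p = 1.89e-07), EXO at -4.47 (SE 0.59, adjusted p = 1.42e-05) and EXLA1 at -4.25 (SE 0.50, adjusted p = 2.78e-06), and to DREB26 (AT1G21910), an AP2 factor, at -4.04 (SE 0.36, adjusted p = 5.7e-08). The highest belonged to ANK (AT5G54610), an ankyrin-repeat gene, at 3.09 (SE 0.77, adjusted p = 0.00938) (not called when only the libraries of ZT13 and ZT17 were fitted, adjusted p = 0.0519), XTH31 at 3.04 (SE 0.55, adjusted p = 0.000616), ACD6 at 2.99 (SE 0.62, adjusted p = 0.00208) and AT5G15500 at 2.94 (SE 0.59, adjusted p = 0.00155). ANK stood at 13.9, 25.3 and 26.2 FPKM at 21 DAS and 119, 136 and 129.5 FPKM at 35 DAS at ZT17. XTH31 (AT3G44990), another xyloglucan enzyme, was low at ZT17 at both ages (1.71, 2.26 and 1.51 and 0.0844, 1.24 and 0.379 FPKM). At ZT17 XTH31 fell, with a difference of -0.91 (SE 0.39, adjusted p = 0.0436), so its fall was smaller there than at ZT13 and ZT21. Its call against ZT13 was lost with a pseudocount of 0.1 (2.302). Of the glucosinolate list, 10 of 22 were higher against ZT13, and of the dark- and starvation-induced list 8 of 25 were lower.

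Compared with ZT21, the other sampling in the dark, the age effect was higher for 506 loci (2.7%) and lower for 619 (3.31%). By scaling, the share of higher loci among those called was 34.8% as deposited and 55.2% after rescaling. EXLA1 at -4.15 (SE 0.50, adjusted p = 5.3e-06), AT4G16563 at -3.23 (SE 0.40, adjusted p = 6.93e-06), PYL5 at -3.02 (SE 0.52, adjusted p = 0.000462) and DIN10 at -2.91 (SE 0.52, adjusted p = 0.00062) were lowest. All 4 were far higher at ZT17 than at ZT21 in 21 DAS leaves, for example DIN10 with means of 576 and 30.5 FPKM. After LHCB1.1 the highest were XTH31 at 3.84 (SE 0.55, adjusted p = 4.53e-05), EXPA8 at 3.34 (SE 0.67, adjusted p = 0.00194), which was 2.62 and not called with a pseudocount of 0.1 (adjusted p = 0.234), and AT1G65870 at 2.71 (SE 0.49, adjusted p = 0.000842). These comparisons share the ZT17 libraries, so their counts are not independent of one another.

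The remaining loci with the highest difference from the other 5 times were of several kinds. P5CS1 (AT2G39800), the rate-limiting enzyme of proline synthesis, which overlaps AT2G39795, stood at 20.7, 17.0 and 25.3 FPKM at 21 DAS and 47.4, 47.5 and 56.2 FPKM at 35 DAS at ZT17 and was higher relative to the other times by 2.15 (SE 0.44, adjusted p = 0.0015). IAGLU (AT4G15550), an auxin glucosyltransferase that overlaps AT4G15545, stood at 2.61, 2.60 and 2.22 FPKM and 11.8, 17.7 and 11.5 FPKM and was higher by 2.00 (SE 0.23, adjusted p = 9.39e-07). AT3G24420 stood at 15.6, 10.8 and 14.3 FPKM and 36.9, 50.1 and 39.1 FPKM and was higher by 2.197 (SE 0.23, adjusted p = 1.89e-07). AT2G27385, AT2G15020 and AT3G28540 were higher by 2.18, 1.95 and 2.03. For ANK the value was 2.15 (SE 0.60, adjusted p = 0.0148), and without 21 DAS replicate 1 it was 1.87 (adjusted p = 0.0619). The serine carboxypeptidase-like gene scpl10 (AT2G23000) stood at 3.81, 4.11 and 5.06 FPKM at 21 DAS and 9.71, 111 and 7.37 FPKM at 35 DAS. Its difference of 2.90 (SE 0.75, adjusted p = 0.0096) became 1.72 (adjusted p = 0.0827) without 35 DAS replicate 2. On the low side, BHLH100 (AT2G41240), an iron-deficiency factor, stood at 14.0, 11.9 and 14.0 FPKM and 0.965, 0 and 0.370 FPKM. Its difference of -2.56 (SE 0.86, adjusted p = 0.0448) lost its call without any single ZT17 library, at -2.81 to -2.32, and AT2G14247 (-2.78) lost its call without any one of 5 of the 6, at -2.86 to -2.43.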

How the data were processed

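Leaf poly(A) RNA was sequenced in 36 libraries (2 ages, 6 times, 3 libraries each). Per the submitters' processing notes, STAR 2.3.0e, HTSeq, edgeR 3.12.1 and the TAIR10 build were used; how FPKM were computed is not given in the sources used here. The authors deposited FPKM for 41342 transcripts, which were summed here to 33279 loci. No read totals are given, so depth is known only relatively. A further 36 columns not mapped to samples, all without values, were left out. Loci with at least 1 FPKM in 3 libraries (18729) were fitted with limma 3.58.1 (R 4.3.3) on log2(FPKM + 1), with 12 group means and a trended variance, and p-values were adjusted by Benjamini-Hochberg over all loci. Calls needed both scalings. The fit was tested on simulated data. Named loci were the 12 largest age effects each way (averaging at least 5 FPKM, no overlap), the 10 largest differences from the other times and the 4 largest from ZT13 and from ZT21, plus members of 38 lists (775 members, 721 tested). Members and lists were chosen with earlier results of these data known. Promoters are RefSeq, TAIR10.1. Alternatives covered scaling, pseudocount, filter, fitted libraries, weights, a replicate block and single libraries left out.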

Additional observations from a re-analysis of the deposited data

Results flagged for a closer look

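For the loci below, the age effect at ZT17 and the age effect at other times differed by a test of the difference itself (limma, adjusted p under 0.05 under both scalings). Values are log2 differences, and no explanation was weighed.

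Relative to the mean of the other 5 times, the age effect was higher for scpl10 (2.90), PAL1 (2.33), AT3G24420 (2.197), AT2G27385 (2.18), ANK (2.15), P5CS1 (2.15), AT3G28540 (2.03), IAGLU (2.00), AT2G15020 (1.95), CDF2 (1.94), LHY (1.52), CCA1 (1.51), LNK1 (1.396), LNK2 (1.38), PRR7 (1.44), GI (1.05), CDF1 (1.11), PIF4 (1.76), PIF8 (0.93), BBX18 (1.65), STH (1.39), STO (1.31), CAO (1.34), ORE1 (1.71), ACD6 (1.77), NPR4 (1.25), ABF3 (1.15), ABI2 (0.93), GOLS2 (1.93), PRE1 (2.35), BAS1 (1.64), CYP83B1 (1.22), SUR1 (0.97), EXPA8 (2.92) and EXPA3 (1.64).

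It was lower relative to the other 5 times for EXO (-2.99), AT4G16563 (-2.91), AT1G50040 (-2.90), EXLA1 (-2.79), AT2G14247 (-2.78), BT4 (-2.72), XTH22 (-2.71), PYL5 (-2.64), XTH33 (-2.57), BHLH100 (-2.56), STP1 (-1.21), ERDL6 (-1.13), DIN10 (-1.99), TPS11 (-1.79), EXL2 (-1.48), TPS10 (-1.43), BT1 (-2.40), BT2 (-1.41), SAG20 (-1.64), CORI3 (-2.12), JAZ10 (-1.74), AOC1 (-1.48), OPR3 (-1.45), COR15B (-1.78), ARR6 (-2.05), ARR7 (-1.70) and XTH16 (-2.50). These are named loci and do not stand for their lists: of 32 jasmonate genes 11 were lower and 1 higher, of 14 morning clock factors 5 were higher, of 18 day and evening clock genes 2 were higher and 1 lower, and of 20 wall-loosening enzymes 5 were higher and 3 lower.

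Relative to ZT13 the age effect was higher for ANK (3.09), XTH31 (3.04), ACD6 (2.99) and AT5G15500 (2.94), and lower for XTH22 (-4.69), EXO (-4.47), EXLA1 (-4.25) and DREB26 (-4.04). Relative to ZT21 it was higher for LHCB1.1 (4.19), XTH31 (3.84), EXPA8 (3.34) and AT1G65870 (2.71), and lower for EXLA1 (-4.15), AT4G16563 (-3.23), PYL5 (-3.02) and DIN10 (-2.91). These comparisons share the ZT17 libraries. For CDF1 the difference from the other times was 0.83 (adjusted p = 0.0686) without 21 DAS replicate 1 and 0.94 (adjusted p = 0.0528) without 35 DAS replicate 2, so the call was lost. It was also lost with a pseudocount of 5 (0.62, adjusted p = 0.075). With a pseudocount of 0.1 the calls for LHY, for BT2 and for EXPA8 against both the other times and ZT21 were lost. At ZT17 EXPA8 was near 0 at 35 DAS and PRE1 was low in all libraries, where log2(FPKM + 1) understates changes.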

How the results depend on the processing

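With the values as deposited alone, 8606 loci were higher at ZT17 and 950 were lower relative to ZT21; after rescaling alone, 5223 were lower at ZT17, 1250 lower relative to ZT13 and 764 higher relative to ZT21. Fitting only the libraries of the times compared gave 385 higher and 414 lower relative to ZT13, and 257 and 366 relative to ZT21; it gives no separate value for the difference from the other 5 times. Library weights gave 970 and 1086 relative to ZT21. Leaving out each ZT17 library in turn gave 4434 to 4613 higher and 3150 to 3326 lower at ZT17, 659 to 911 and 852 to 1208 relative to the other times, 606 to 892 and 584 to 800 relative to ZT13, and 379 to 502 and 466 to 601 relative to ZT21; 852 and 606 are without 21 DAS replicate 2. Call stability under each omission was counted for 161 age effects, those of the naming rule and the largest called changes of each list. Of these 150 kept their call, as did 67 of the 78 differences flagged above. Some of the 161 are not given above. Some results given above, such as the age effects of CAO and STP1 and the ATG8E difference, are outside these counts. Without the 2 ZT17 libraries holding AT2G01021, an alternative chosen after seeing the data, 750 and 1027 loci were called relative to the other times. The sign reversed for ACD2 at ZT17 (-0.28, rescaled alone) and for the difference of LNK3 (1.89, pseudocount 0.1); the cause was not tested. Same-numbered ZT17 libraries correlated at 0.02, 0.03 and -0.11 in their deviations from group means. Over all groups, same-numbered pairs ranged from -0.47 to 0.58, with a mean of 0.009 against -0.004 for different numbers. Whether a number marks a shared batch was not tested. With the number as a block, 5053 and 3445 loci were called at ZT17, and 979 and 1292, 960 and 808, and 510 and 620 relative to the other times, ZT13 and ZT21; the BT2 difference was then not called (-1.41, adjusted p = 0.0583). Without read totals, precision at low FPKM is unknown.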
